A study of Drosophila melanogaster with 4 samples.

Results

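Among 20618 cells of Drosophila melanogaster testis tumors, 624 cells had been annotated by the authors as spermatocyte, and these cells are described here. The members were taken from the authors' annotation alone, which placed every cell in 1 of 5 classes. The others were named GSC-like (germline stem cell-like, 10889 cells), CySC-like (cyst stem cell-like, 8261 cells), somatic (515 cells) and muscle (329 cells). The tumors were made by overexpression of Unpaired (Upd), the ligand of the JAK-STAT pathway that keeps germline and cyst stem cells in the niche. In Nanos-Upd tumors (2 libraries), a GAL4::VP16 driver with nanos sequences switched on UAS-Upd in the germline, in a y[1] w[1118] background with a hs70FLP insertion. In TrafficJam-Upd tumors (2 libraries), a traffic Jam-GAL4 driver switched on UAS-Upd in cyst cells, in a w[1118] background. Both tumor types carried the same UAS-FRT-H3-GFP-FRT-H3-mKO histone reporter, and crosses of both were kept at 25 degrees C. About 18 to 20 testis pairs were pooled for each genetic strategy, no age of the flies was given, and no testis without Upd overexpression is among the samples. The 2 libraries of a tumor type are called replicates in their titles, but nothing says that they came from separate flies, so p-values measure only the spread between these libraries.

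In the fly testis, germline stem cells give rise to spermatogonia, which divide under the control of bam and then enter a long growth phase as primary spermatocytes. Spermatocytes express the meiotic arrest genes, whose products form the tMAC complex (aly, comr, topi, tomb and others) and a set of testis-specific TAFs (can, sa, mia, nht and rye, here listed as Taf12L). Both are required for the transcription of genes that act in meiosis and in spermatids. Many of these messages, among them those of sperm chromatin and sperm tail proteins, are made in spermatocytes, stored and translated later. A small group of cup and comet genes is transcribed after meiosis, in spermatids.

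The class held 249 and 106 cells in Nanos-Upd replicates 1 and 2, and 94 and 175 cells in TrafficJam-Upd replicates 1 and 2. Its cells carried 926119, 383102, 390539 and 725577 unique molecular identifiers (UMIs, each standing for 1 captured transcript) in that order, and values for 4 libraries are given in that order throughout. Levels are given as CPM, the UMIs of a gene per 1000000 UMIs of the class in a library. Only cells with 2200 to 7499 UMIs and 524 to 2499 genes were deposited, and the class reached closer to the upper limit on genes than the GSC-like class did. At least 2400 genes were seen in 2.72% of its cells and in 0.790% of GSC-like cells. The median cell of the class had 3424 UMIs and 1549 genes. When every cell was thinned to 2200 UMIs, the median was 1153 genes, against 1040 genes for GSC-like and 997 genes for CySC-like cells. Ribosomal transcripts took a median of 12.5% of the UMIs of a cell, against 31.5% in GSC-like cells. Of the cell barcodes, 35 occurred in more than 1 library, and 2 cells of the class were among them.

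Nanos-Upd replicate 2 stood apart from the other 3 libraries. It had the smallest share of the class, the lowest level of stored spermatid transcripts (18230 CPM, against 28635 to 41998 CPM) and the highest level of cyst lineage genes (1269 CPM, against 484 to 561 CPM). In it, 44.3% of the cells of the class held UMIs of at least 2 of 9 cyst markers, against 13.8% to 18.3% in the other libraries. Droplets that hold a cyst cell beside a germ cell were not searched for with a doublet caller, and their part in these values was not tested.

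The 4 markers given for the class fell into an abundant and a scarce pair. Mst87F, which encodes a sperm tail protein, was at 4637, 1785, 5684 and 3848 CPM, and dj (don juan), a protein of the sperm tail and its mitochondria, at 2304, 1276, 2512 and 1848 CPM. Both were lowest in Nanos-Upd replicate 2. After each cell was thinned to 2200 UMIs, Mst87F was seen in 91.7% and dj in 83.7% of the cells of the class. Of GSC-like cells, 23.1% had Mst87F and 11.5% had dj, and of muscle cells, which should lack both, 24.3% and 13.4%, so the GSC-like shares were no higher than those of muscle cells. The spermatocyte regulators aly and can were near the limit of detection. aly was at 11.9, 2.61, 2.56 and 16.5 CPM, within the range of GSC-like cells (8.70 to 18.9 CPM). can was at 9.72, 18.3, 12.8 and 8.27 CPM, above its range in GSC-like cells (3.03 to 6.59 CPM). A UMI of aly was found in 20 cells and of can in 23 cells of the class before thinning. Of the 4 markers, the late pair thus set the class apart, can did so at low levels and aly did not, and the cells are called here by the authors' name for them.

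The 9 tMAC genes did not move as a block between the classes. The testis-specific subunits comr, topi, vis and wuc were higher in the class than in GSC-like cells with no overlap of the libraries. The DNA-binding factor topi was at 23.8, 20.9, 12.8 and 17.9 CPM, against 4.28 to 7.15 CPM in GSC-like cells. vis, a homeodomain factor, was at 41.0, 39.2, 25.6 and 20.7 CPM, against 4.46 to 7.15 CPM. mip40 and Caf1-55, which also belong to complexes outside the testis, were lower with no overlap, and Caf1-55 was at 50.7 to 81.3 CPM against 166 to 226 CPM in GSC-like cells. The remaining aly, tomb and achi overlapped. Summed over the list, tMAC stood at 259, 266, 218 and 311 CPM in the class. This was below the 302 to 404 CPM of GSC-like cells except in TrafficJam-Upd replicate 2, whose value lay inside that range. Caf1-55 alone gave 166 to 226 CPM of the GSC-like sum, and all tMAC sums and per-cell values given here include it. Over all 15221 features with a UMI in either class, 20.3% were higher in the class and 22.5% were lower with no overlap of the libraries, and these counts are descriptions, since the classes rest on the expression of the same cells.

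Testis TAFs were higher in the class. Their sum was 200, 201, 133 and 167 CPM, against 72.7 to 109 CPM for GSC-like cells and no more than 42.1 CPM for the 3 other classes. can, mia and sa had no overlap with GSC-like cells, whereas nht and Taf12L did. sa (spermatocyte arrest) showed the widest gap, with 37.8, 31.3, 23.0 and 15.2 CPM against 0.357 to 2.24 CPM. mia (meiosis I arrest) was at 69.1, 57.4, 69.1 and 60.6 CPM, against 24.3 to 30.3 CPM. After thinning, a testis TAF UMI was found in 30.4% of the cells of the class, 14.9% of GSC-like cells and 5.08% of CySC-like cells.

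Other spermatocyte regulators were spread over a wide range of levels. fest, which acts with Rbp4 on the translation of Cyclin B in spermatocytes, was at 1524, 1626, 1444 and 1286 CPM, against 23.2 to 56.3 CPM in GSC-like cells. betaTub85D, the beta tubulin of the male germline, was at 1896, 1530, 1649 and 1206 CPM, against 11.0 to 63.2 CPM. bol (boule), an RNA-binding protein needed for meiotic entry, was at 620, 697, 499 and 466 CPM, against 98.5 to 213 CPM. After thinning, bol was seen in 58.2% of the cells of the class and in 54.7% of muscle cells, so its detection did not set the class apart from muscle. fest, betaTub85D and bol had no overlap with GSC-like cells, as 7 of the 14 genes on the list. blanks, which encodes a double-stranded RNA-binding protein of the testis, overlapped, and after thinning it was found in 31.2% of the cells of the class and in 51.2% of GSC-like cells. Of the 15 genes of the meiotic cell cycle and of homolog conjunction, 4 were higher and 7 lower than in GSC-like cells with no overlap. Roc1b, a ubiquitin ligase subunit of the testis, was at 135 to 214 CPM, against 1.61 to 5.43 CPM, while stg, the mitotic Cdc25 phosphatase, was at 31.3 to 66.6 CPM, against 199 to 270 CPM.

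Transcripts of the Y chromosome, whose fertility genes are transcribed in spermatocytes, were higher in the class. The 12 Y-linked genes summed to 457, 318, 382 and 284 CPM, against 50.2 to 72.9 CPM in GSC-like cells, which is 5.14 to 7.61 times as much within a library. Of them, 11 were higher with no overlap. kl-5, an axonemal dynein heavy chain, was at 73.4, 28.7, 43.5 and 49.6 CPM, against 0.893 to 4.57 CPM. CCY was at 55.1, 36.5, 38.4 and 28.9 CPM, against 0.982 to 1.61 CPM. FDY, which derives from the autosomal gene vig2 and may share reads with it, was the exception, with at most 6.89 CPM in the class and 7.49 to 20.9 CPM in GSC-like cells. The level of single Y-linked genes was low, and only 47.3% of the cells of the class held a UMI of any of them after thinning.

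Transcripts of later stages were far more abundant in the class than in the other classes. The 18 stored spermatid genes (sperm chromatin and tail) summed to 38332, 18230, 41998 and 28635 CPM in the class, and all 18 were higher than in GSC-like cells with no overlap. They made 353 to 1316 CPM of the GSC-like class and at most 2045 CPM of any other class. Mst84Da, a sperm tail gene of a cluster on chromosome 3R, was the most abundant of them at 9358, 3981, 10450 and 7696 CPM. The protamine genes ProtA and ProtB, whose products package sperm DNA, were at 598 to 1024 CPM and 726 to 1403 CPM, against at most 35.2 CPM in GSC-like cells. Mst77F, a linker histone-like protein of the sperm nucleus, was at 2139, 1162, 2486 and 1528 CPM. ProtA and ProtB are near-identical copies, as are members of the Mst84D cluster in part, and how reads were divided among such copies is not given in the sources used here. Transcripts of sperm mitochondria and sperm leucylaminopeptidases (12 genes) summed to 13446, 8251, 12544 and 9377 CPM, with 10 genes higher than in GSC-like cells. S-Lap4, an aminopeptidase of the sperm mitochondrial derivative, was at 3464, 1715, 3178 and 2427 CPM. The plot of gene lists by class shows these levels beside those of the other 4 classes.

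The cup and comet list summed to 8851, 6374, 8813 and 6760 CPM in the class, against 125 to 299 CPM for GSC-like cells. Of its 19 genes, 17 were higher with no overlap, and cola and swif had no UMI in the class, which allows at most 1.24 CPM over its 2425337 UMIs. ocn made up the largest part, with 3423, 1913, 4243 and 3120 CPM, followed by w-cup at 1895, 1697, 1680 and 1189 CPM. soti (scotti), an inhibitor of a ubiquitin ligase in spermatids, was at 619, 715, 617 and 340 CPM. schuy was at 296, 167, 189 and 163 CPM, and hale at 219, 73.1, 58.9 and 62.0 CPM, against at most 8.36 and 1.98 CPM in GSC-like cells. Transcripts credited to spermatocytes and transcripts credited to spermatids were thus both present in the class.

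**Figure D1:**
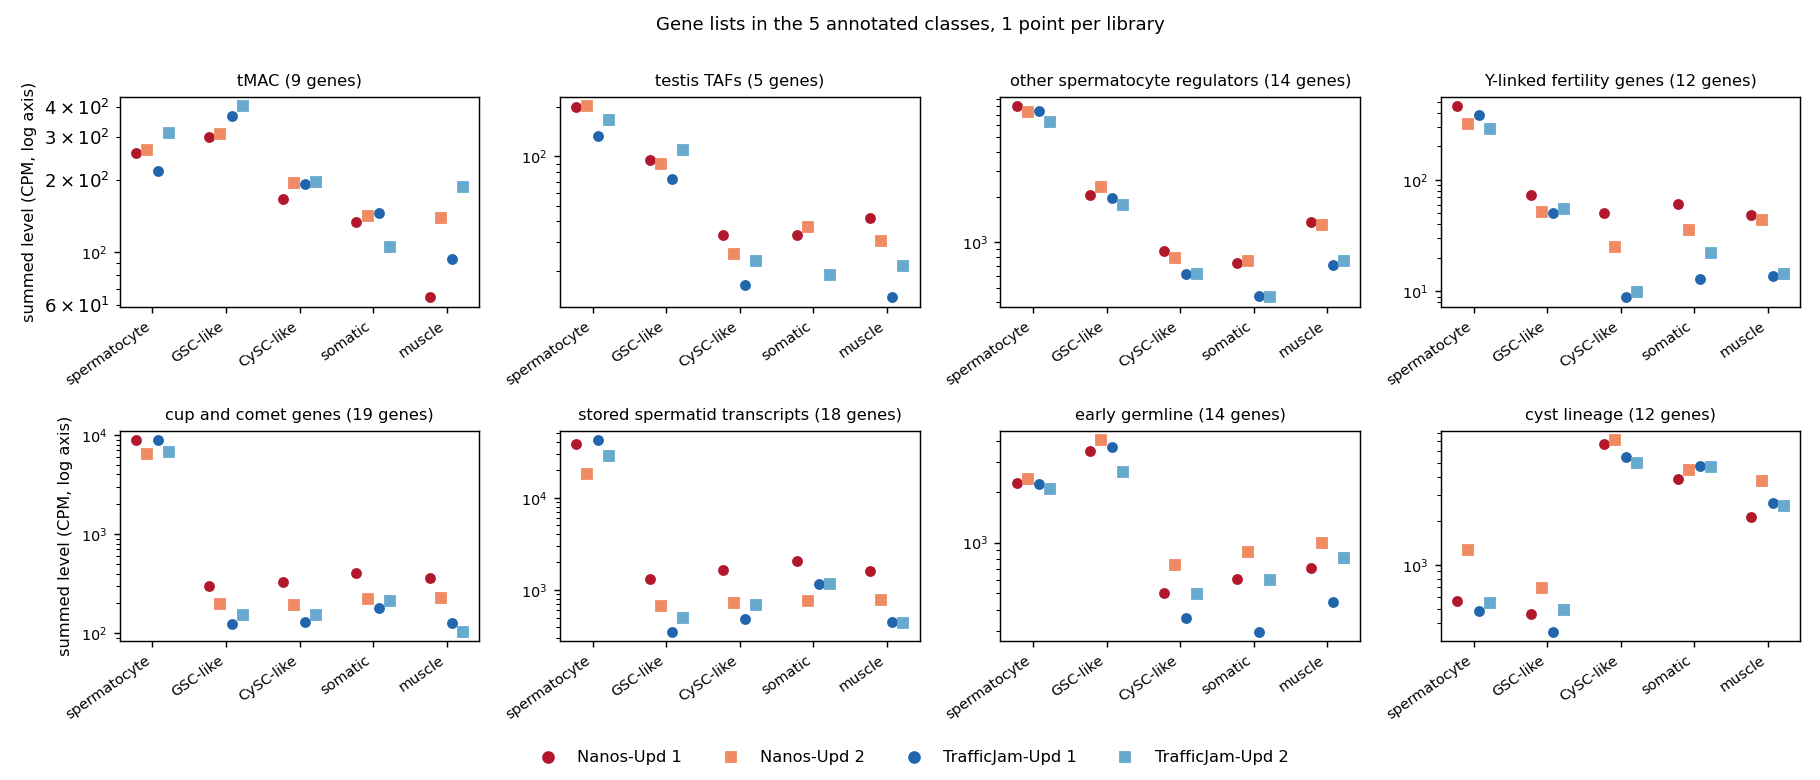
Summed level of 8 gene lists (CPM, log axis) in the 5 annotated classes, 1 point per library. Stored spermatid, cup and comet, Y-linked and testis TAF transcripts are above every other class in the spermatocyte class of all 4 libraries, tMAC is highest in GSC-like cells, and the cyst lineage is highest in CySC-like cells; the 1 point at 0 CPM (testis TAFs, somatic class, TrafficJam-Upd 1) cannot be drawn on a log axis.

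Genes of early germ cells were lower. Of 14 genes, 12 were lower than in GSC-like cells with no overlap, among them vas (68.0, 91.4, 38.4 and 63.4 CPM, against 226 to 291 CPM), which encodes the germline helicase Vasa, and bam (10.8, 60.0, 30.7 and 20.7 CPM, against 69.9 to 114 CPM). bru1, an RNA-binding protein with roles in the ovary and testis, overlapped, as did bgcn, and supplied the largest part of the sum, at 1656, 1107, 1531 and 1229 CPM. DNA replication genes summed to 357, 689, 341 and 513 CPM, against 1309 to 1509 CPM in GSC-like cells, and 11 of 13 were lower with no overlap. Markers of other cell types were low in the sums beside the classes they mark. Against GSC-like cells of the same library, cyst lineage genes were 1.11 to 1.84 times as high and muscle genes 1.87 to 2.76 times. Terminal epithelium genes were 1.43 to 2.33 times as high, and hemocyte genes 0.915 to 1.26 times. Cyst lineage genes (12) reached 484 to 1269 CPM, against 4983 to 7098 CPM in CySC-like cells, and tj, the defining cyst factor, was at 21.6, 96.6, 25.6 and 31.7 CPM. Muscle genes (10) stood at 79.4 to 154 CPM, against 22578 CPM or more in the muscle class. Hemocyte genes (7) stood at 11.0 to 16.2 CPM, with NimC1, He and Sr-CI at 0. Terminal epithelium genes (6) stood at 879 to 1115 CPM, nearly all of it MtnA, a metallothionein, with nord, Sox100B and ems at 0. Heat shock genes (11) summed to 1796, 2287, 1196 and 1557 CPM, below the 2653 to 3258 CPM of GSC-like cells.

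Across the genome, 2465 genes reached at least 50 CPM in the class in every library. Of these, 1310 were higher than in every other class in every library, 968 by at least 4-fold and 325 by at least 16-fold (ratios of CPM + 1). Among the 968 genes, 683 (70.6%) carry a CG number in place of a name. The 15 most abundant genes outside ribosomal and mitochondrial genes were led by lncRNA:CR34335, which was at 12401 to 29054 CPM but was higher still in another class. It was followed by Mst84Da, CG31226 (2461 to 7367 CPM), CG30430 (2362 to 5889 CPM) and CG12853 (2375 to 5339 CPM). Pen, an importin alpha, was sixth at 3550 to 5404 CPM, and Mst87F, Mst84Dd and ocn were the other named genes. The genes that stood highest above the next class were CG43935 (689 to 1178 CPM, at least 35.6-fold), CG31294 (221 to 340 CPM, at least 34.8-fold) and soti (at least 34.2-fold). Mst33A, Tim13, a mitochondrial import protein, and robl62A, a dynein light chain, were also among the 15 highest ratios.

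Chromosomes X and 4 gave smaller shares of the UMIs in the class than in GSC-like cells. Ribosomal protein genes and genes of the mitochondrial genome were left out of all these shares of UMIs. Chromosome X gave 12.0%, 13.3%, 12.6% and 15.2% of the remaining UMIs of the class from chromosomes, against 16.9% to 20.2% in GSC-like cells. Since lncRNA:CR34335 lies on X and varies between classes, the share was also taken without it, and was then 9.63%, 12.0%, 10.4% and 11.8% in the class and 14.8% to 16.3% in the other 4 classes. Chromosome 4 gave 0.482% to 0.902% of the UMIs, against 1.20% to 1.52% in GSC-like cells. Of the genes at 50 CPM or more, 968 of 2465 were at least 4-fold higher than in every other class. By chromosome arm, these were 34.7% of the genes on X, 46.5% on 2L, 40.3% on 2R, 37.7% on 3L and 38.5% on 3R. On chromosome 4 it was 1 of 29 genes, and these shares were not tested. The Y chromosome gave 0.0442% to 0.0662% of the UMIs, against 0.00872% to 0.0126% in GSC-like cells.

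Stored spermatid transcripts were present in nearly every cell of the class, but in very unequal amounts. After thinning to 2200 UMIs, a cell of the class held a median of 69 UMIs of the 18 genes, with the 10th percentile at 9, the 90th at 142 and the highest cell at 462. The median GSC-like cell held 1 UMI. The median per library was 78, 28.5, 98.5 and 49 UMIs. Of the 624 cells, 573 (91.8%) exceeded the 99th percentile of GSC-like cells of their own library, which was 13, 7, 5.82 and 7 UMIs. By library, this was so in 96.8%, 87.7%, 92.6% and 86.9% of cells. The same comparison was met by 551 cells (88.3%) for cup and comet genes, 502 cells (80.4%) for sperm mitochondria, 77 cells (12.3%) for Y-linked genes and 18 cells (2.88%) for tMAC and testis TAFs together. The tenth of cells with the most stored spermatid transcripts held 25.6% of those UMIs.

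The late transcripts varied together over the cells, and the early regulators did not follow them. Over 624 cells, the rank correlation with the stored spermatid sum was 0.72 for cup and comet genes and 0.76 for sperm mitochondria. It was -0.30 for tMAC, -0.08 for testis TAFs, -0.45 for DNA replication, -0.56 for heat shock genes and -0.78 for the percent of ribosomal UMIs. Within single libraries, the values ran from 0.52 to 0.81 for cup and comet genes and from -0.83 to -0.67 for ribosomal UMIs. The cells share libraries and a fixed number of UMIs, so that more of one kind of transcript leaves less room for another, and a cell with many late transcripts has a lower percent of ribosomal ones for that reason as well. Of the cells, 337 (54.0%) had a UMI of tMAC or testis TAF genes. They were 142 of the 315 cells (45.1%) at or above the median of stored spermatid transcripts and 195 of the 309 cells (63.1%) below it. In Nanos-Upd replicate 2 the shares were 52.0% and 53.1%, and in the other libraries the cells with more stored spermatid transcripts had the lower share by a wider margin.

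To see how the transcripts were combined in cells, the class was clustered on its own (2000 variable genes, 20 components, 15 neighbours, Leiden resolution 0.5). This gave 7 sub-clusters, which were numbered by rising stored spermatid level from 5080 CPM in sub-cluster 1 to 73493 CPM in sub-cluster 7. They held 60, 139, 40, 89, 79, 134 and 83 cells. At resolution 1.0, only 80 of the 139 cells of sub-cluster 2 stayed together. The genes of the sub-clusters were used to form them, so what follows is a description.

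**Figure D2:**
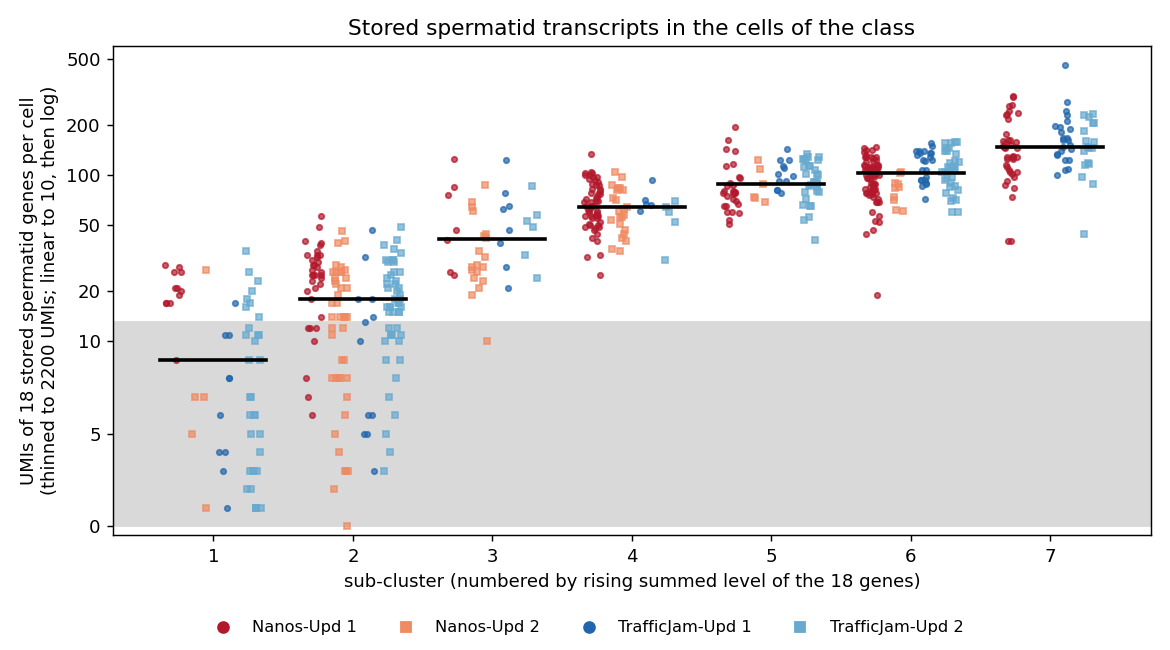
UMIs of the 18 stored spermatid genes in each of the 624 cells of the class, thinned to 2200 UMIs (axis linear to 10, then logarithmic), by sub-cluster and library; bars are medians, and the grey band ends at 13 UMIs, the highest of the 4 library values for the 99th percentile of GSC-like cells. The medians run from 9 UMIs in sub-cluster 1 to 147 UMIs in sub-cluster 7, and the cells inside the band are all in sub-clusters 1 to 3.

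Sub-cluster 1 had the regulators of spermatocytes with few of their late targets. tMAC was at 791 CPM and testis TAFs were at 500 CPM, both the highest of the 7, while cup and comet genes were at 1913 CPM, the lowest. aly (55.2 CPM), nht (114 CPM), wuc (191 CPM) and Taf12L (195 CPM) were all highest here. Its leading genes included CG2861, tipE, a subunit of a sodium channel, Rbp4 (210 CPM, against 8.36 CPM in the rest) and blanks (2122 CPM, against 137 CPM). fest was already at 2071 CPM. Its median cell had 4694 UMIs, the most of the 7, and 21.2% ribosomal UMIs.

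Sub-clusters 2 and 3 carried genes of other cells of the tumor beside late transcripts. Sub-cluster 2 was led by CG32816, stg (148 CPM, against 14.4 CPM), Drep2, RapGAP1 and lncRNA:Hsromega, and had the highest level of replication genes (1067 CPM) and 29.3% ribosomal UMIs. vas (166 CPM), nos (115 CPM) and zpg (131 CPM) were highest in it. Sub-cluster 3 was led by robo2, a Slit receptor, and by roX2 and roX1, the RNAs of male dosage compensation (706 and 1278 CPM, against 48.3 and 94.1 CPM). Cyst lineage genes stood at 3681 CPM in it, against 261 to 833 CPM in the others. Both still held 9189 and 21199 CPM of stored spermatid transcripts, far above GSC-like cells. The 2 sub-clusters made up 16.9%, 58.5%, 21.3% and 31.4% of the class, with the highest value in Nanos-Upd replicate 2.

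Sub-clusters 4, 5 and 6 had Y-linked, meiotic and axoneme transcripts at their highest. Sub-cluster 4 had the most Y-linked (739 CPM) and meiotic (2158 CPM) transcripts, with CycB at 210 CPM, polo at 250 CPM and testis TAFs at 280 CPM. It was led by uncharacterized genes, among them CG4021, CG4891 and CG15876. fzo, the mitofusin that joins mitochondria in early spermatids, was at 147 CPM in it and at 7.36 to 46.6 CPM in the others. Sub-cluster 5 was marked by cup and comet genes at 17019 CPM, against at most 11695 CPM elsewhere. hale was at 628 CPM (38.5 CPM in the rest), wa-cup at 553 CPM (36.1 CPM) and whip at 1215 CPM (89.6 CPM). In sub-cluster 5, the cell with the most UMIs of a gene held 30.6% of those of hale, 9.84% of wa-cup and 23.8% of whip. w-cup (4553 CPM), soti (1582 CPM), boly (693 CPM), schuy (562 CPM) and c-cup (470 CPM) were also highest there. In sub-cluster 6, ProtA (1513 CPM), ProtB (1804 CPM) and Mst77F (3062 CPM) were at their highest of the 7, and cup and comet genes were at 7862 CPM.

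Sub-cluster 7 had the most sperm tail transcripts and the fewest kinds of transcripts. Mst84Da was at 21696 CPM, Mst87F at 11091 CPM, dj at 4193 CPM and ocn at 7924 CPM, while tMAC (92.9 CPM), testis TAFs (64.3 CPM), betaTub85D (1269 CPM) and bol (239 CPM) were below their levels in sub-clusters 4 to 6. After thinning, its median cell had 963 genes, against 1113 to 1288 in the other sub-clusters. Its leading genes included Obp44a (5004 CPM, against 214 CPM), Obp99a, Sod3 and scpr-A, scpr-B and scpr-C. These are not known as sperm genes, and scpr-A, scpr-B and scpr-C were each found in 16 of its 83 cells. Sod3 was found in 9 cells. In sub-cluster 7, the cell with the most UMIs of a gene held 54.3% of those of Sod3, 21.6% of Obp44a and 19.5% of Obp99a. For scpr-A, scpr-B and scpr-C it held 38.7%, 27.9% and 34.0%. Sub-cluster 7 had no cell of Nanos-Upd replicate 2, which allows a share of up to 2.83% of that library's cells of the class. Its border with sub-cluster 6 depended on the clustering. At resolution 1.0, 81 of its 83 cells stayed together. With 1000 variable genes, 80 of them fell into a cluster of 214 cells that also held 126 of the 134 cells of sub-cluster 6. The map of gene lists by sub-cluster gives these levels together.

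**Figure D3:**
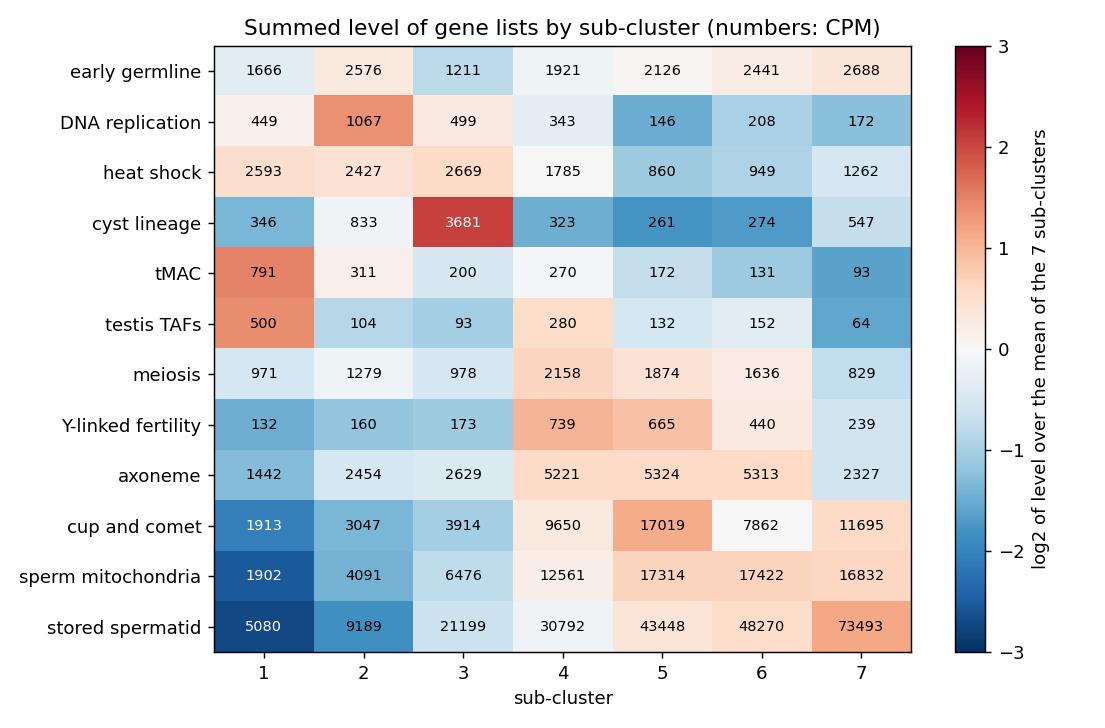
Summed level (CPM, printed in each field) of 12 gene lists in the 7 sub-clusters, coloured by log2 of the level over the mean of the 7. tMAC and testis TAFs are highest in sub-cluster 1, replication in 2, cyst lineage genes in 3, Y-linked genes in 4, cup and comet genes in 5 and stored spermatid transcripts in 7.

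The share of the class did not separate the tumor types. It was 5.40% of all cells (249 of 4615; exact 95% binomial interval 4.76% to 6.09%) in Nanos-Upd replicate 1 and 1.17% (106 of 9093; 0.955% to 1.41%) in replicate 2. It was 2.90% (94 of 3241; 2.35% to 3.54%) and 4.77% (175 of 3669; 4.10% to 5.51%) in the TrafficJam-Upd libraries. Intervals cover counting error only. The means were 3.28% ± 2.99 (SD, n = 2) and 3.84% ± 1.32 (SD, n = 2), and a two-sided exact permutation test gave p = 1.0, where 2 libraries against 2 cannot go below 0.33. As a share of germline cells (GSC-like and spermatocyte), it was 9.38%, 1.87%, 7.75% and 8.88%. The 2 Nanos-Upd libraries thus lay on either side of both TrafficJam-Upd libraries, and without Nanos-Upd replicate 2 the difference in share turned from -0.55 to 1.56 percentage points.

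The summed levels of 7 of the 16 gene lists overlapped between the tumor types, among them tMAC, Y-linked, cup and comet and stored spermatid genes. The other 9 sums were higher in both Nanos-Upd libraries than in both TrafficJam-Upd libraries, and these differences of sums were not tested. With 2 libraries against 2, even such an order cannot go below p = 0.33 in an exact permutation test. The count of 9 is thus a description only, with no share over all genes beside it. Among the 9 were marker lists of other cells (cyst lineage, terminal epithelium, muscle and hemocyte), with hemocyte genes at only 11.0 to 16.2 CPM. Meiosis genes, for example, summed to 1547, 1684, 1296 and 1268 CPM, and cyst lineage genes to 561, 1269, 484 and 549 CPM. Axoneme genes summed to 4141, 4062, 3528 and 3050 CPM. That list includes the tubulins betaTub85D and alphaTub84B, which gave 2358 and 2001 CPM of its 5221 CPM in sub-cluster 4. Stored spermatid transcripts differed by -0.39 on the log2 scale (Nanos-Upd minus TrafficJam-Upd), less than the 0.60 of the pooled SD between replicates. With 1 library left out, that difference ran from -0.93 (without Nanos-Upd replicate 1) to 0.14 (without Nanos-Upd replicate 2). Cup and comet genes differed by -0.04 (SD 0.30), and tMAC with testis TAFs by 0.18 (SD 0.22). upd1, the overexpressed ligand, was at 31.3, 47.0, 17.9 and 12.4 CPM in the class. The groups did not overlap, but the difference did not pass the test (log2 fold change 1.25 ± 0.61 SE, edgeR quasi-likelihood test, adjusted p = 0.829). H3-GFP, the reporter transcript, was at 8.64, 7.83, 2.56 and 5.51 CPM, below the level needed for a test.

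Gene by gene, 42 of 6276 tested genes (0.669%) differed between the tumor types in the class (edgeR quasi-likelihood test on the 4 summed libraries, Benjamini-Hochberg adjusted p under 0.05). Of them, 32 (0.51% of the genes tested) were higher and 10 (0.159%) lower in Nanos-Upd, and 360 genes had an unadjusted p under 0.05. None of the tested stored spermatid (18), cup and comet (17), testis TAF (4), tMAC (6), Y-linked (8) or cyst lineage (8) genes was called by edgeR or by DESeq2, and 5 of these 61 genes (hale, Taf12L, achi, kon and zfh1) had an unadjusted edgeR p under 0.05. The median log2 fold change was -0.30 over the stored spermatid genes, 0.07 over cup and comet genes and 0.74 over cyst lineage genes, against -0.03 over all genes tested. From the lists, fzo and Hsp68 were called by edgeR, and DESeq2 called neither (adjusted p = 0.0784 and 0.125). fzo (chromosome 3R, 23201644 to 23204034, minus strand, BDGP6.54) was at 56.1, 57.4, 7.68 and 4.13 CPM (log2 fold change 3.22 ± 0.68 SE, edgeR adjusted p = 0.00118). Hsp68, a heat shock chaperone, was at 127, 175, 23.0 and 45.5 CPM (log2 fold change 1.94 ± 0.51 SE, edgeR adjusted p = 0.0259). Both lost the edgeR call without TrafficJam-Upd replicate 1 (adjusted p = 0.0556 for fzo and 1.00 for Hsp68) and without TrafficJam-Upd replicate 2 (0.891 for both).

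Of the 42 genes, 14 met the rule for naming (at least 50 CPM on average, no overlap, the 10 largest changes in each direction). The 10 higher genes changed by log2 1.95 to 3.05. CG5043 had the largest change, with 117, 96.6, 15.4 and 9.65 CPM (log2 fold change 3.05 ± 0.57 SE, edgeR adjusted p = 0.000112). cocoon was at 89.6, 102, 7.68 and 15.2 CPM, and CG15109 was at 354, 436, 81.9 and 78.6 CPM. CG31960, CG31406, CG42703, CG5681 and lncRNA:CR43803 also had both Nanos-Upd libraries above both TrafficJam-Upd libraries. fz2, a Wnt receptor, was at 50.7, 141, 12.8 and 12.4 CPM. lncRNA:Hsromega, a heat-inducible nuclear RNA, was at 662, 3299, 387 and 354 CPM, so its change came mostly from Nanos-Upd replicate 2.

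CG45490 (chromosome X, 19933541 to 19934294, BDGP6.54) was the lowest in Nanos-Upd. It had no UMI in either Nanos-Upd library and stood at 184 and 109 CPM in the TrafficJam-Upd libraries, where 91 cells held it. Against the 3 counts that 0 allows over the Nanos-Upd cells of the class, its level was at least 59.0-fold higher in TrafficJam-Upd. snRNA:U11, an RNA of the minor spliceosome, was at 13.0, 13.1, 64.0 and 110 CPM (log2 fold change -2.84 ± 0.55 SE). CG1894 was at 31.3, 47.0, 187 and 274 CPM, and CG15742 at 37.8, 13.1, 128 and 103 CPM. lncRNA:CR45633, which fell outside the rule on level and was chosen after its values were seen, was the mirror image of CG45490. It was at 84.2 and 60.0 CPM in Nanos-Upd and had no UMI in TrafficJam-Upd, so it was at least 28.7-fold higher in Nanos-Upd. The plot of genes that passed between the tumor types sets these values beside those of GSC-like cells.

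**Figure D4:**
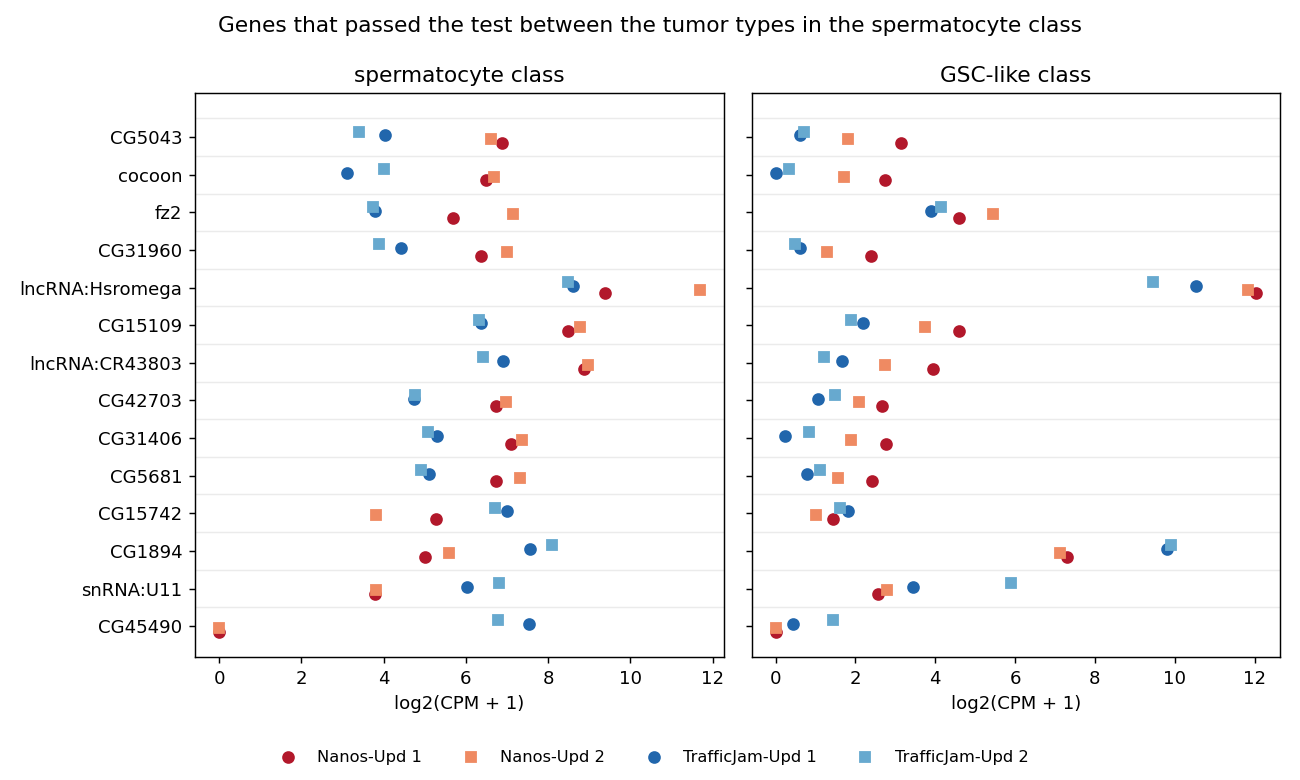
Level of the 14 named genes, as log2(CPM + 1), in the spermatocyte class (left) and in GSC-like cells (right), 1 point per library. In the spermatocyte class both Nanos-Upd libraries lie on one side of both TrafficJam-Upd libraries for every gene, and CG45490 is at 0 in Nanos-Upd.

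Most genes higher in Nanos-Upd had their highest level in the same sub-cluster. Of the 32 genes higher in Nanos-Upd, 27 had their highest level in sub-cluster 4, as did 13.3% of all genes tested. Of the 10 lower genes, 4 had theirs in sub-cluster 1, near the share of all genes tested (33.8%). By library, sub-cluster 4 held 56, 23, 5 and 5 cells, which is 22.5%, 21.7%, 5.32% and 2.86% of the class. Most of its cells were thus from Nanos-Upd. A gene higher in Nanos-Upd and a gene of sub-cluster 4 cannot be told apart by this count. Sub-cluster 4 had been formed in part by the same genes, so its size cannot be compared between the tumor types. When the class was clustered again without the 360 genes at an unadjusted p under 0.05, all cells of sub-cluster 4 fell into a cluster of 191 cells, of which they made up 46.6%. By library, that cluster held 37.3%, 29.2%, 23.4% and 25.7% of the class. With sub-clusters 1 and 4 left out, 9 genes were called, all of them among the 42 (CG45490, CG33669, CG1894, CG15742, lncRNA:CR45633, lncRNA:Hsromega, Nplp2, CG34283 and fz2). Of the 42, 16 were no longer tested in that smaller set, and 17 were tested without a call. The log2 fold changes of those 17 kept their direction, at a median of 0.708 times their size in the whole class. The part of the make-up of the class in the calls was not tested. With sub-clusters 2 and 3 left out, 108 genes were called, 33 of them among the 42. Leaving out TrafficJam-Upd replicate 2 left 4 calls, leaving out TrafficJam-Upd replicate 1 left 21, and leaving out Nanos-Upd replicate 2 gave 103. CG45490 and lncRNA:CR45633 were the genes called in all 4 of these fits without 1 library.

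The tumor type differences of the class were then set against those of GSC-like cells from the same libraries. Of 10016 genes tested for an interaction of class and tumor type, 770 (7.69%) passed (edgeR, adjusted p under 0.05), 756 of them negative (7.55%) and 14 positive (0.14%). The median over all genes was -0.34. Of the 756 negative genes, 721 (95.4%) were at least 4 times higher in the class than in GSC-like cells, as were 26.7% of all genes tested. Genes of this kind had a median tumor type log2 fold change of 0.03 in the class and of 1.23 in GSC-like cells. Among the lists, 16 of 18 stored spermatid, 9 of 12 sperm mitochondria and 8 of 17 tested cup and comet genes were negative. For dj the interaction was -2.05 ± 0.34 SE (edgeR adjusted p = 1.4e-06), and its level in GSC-like cells was 98.5, 48.3, 19.1 and 29.9 CPM. Late transcripts also differed between the libraries outside the germline. In muscle cells, stored spermatid genes summed to 1596, 786, 449 and 438 CPM, and in CySC-like cells to 1661, 724, 482 and 689 CPM. In somatic cells they summed to 2045, 756, 1150 and 1146 CPM, so that Nanos-Upd replicate 2 was the lowest there. Nanos-Upd replicate 1 was the highest in each of these classes, as in GSC-like cells. The part of free RNA in the interaction of these genes was not tested.

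upd1 and H3-GFP, the readouts of the driver, also differed in their tumor type contrast between the classes. In GSC-like cells, upd1 was at 64.3, 58.6, 1.79 and 5.33 CPM, and the interaction was -2.85 ± 0.64 SE (edgeR adjusted p = 0.000488). In the TrafficJam-Upd libraries, upd1 was thus lower in GSC-like cells than in the spermatocyte class, and in the Nanos-Upd libraries it was higher. For H3-GFP, the GSC-like levels were 59.9, 78.2, 2.68 and 4.03 CPM (interaction -3.44 ± 1.03 SE, edgeR adjusted p = 0.0159), a call that held in 2 of 10 alternatives. CycB and eIF4E3 were the 2 list members called with a positive interaction (1.65 and 1.32, edgeR adjusted p under 0.05).

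**Figure D5:**
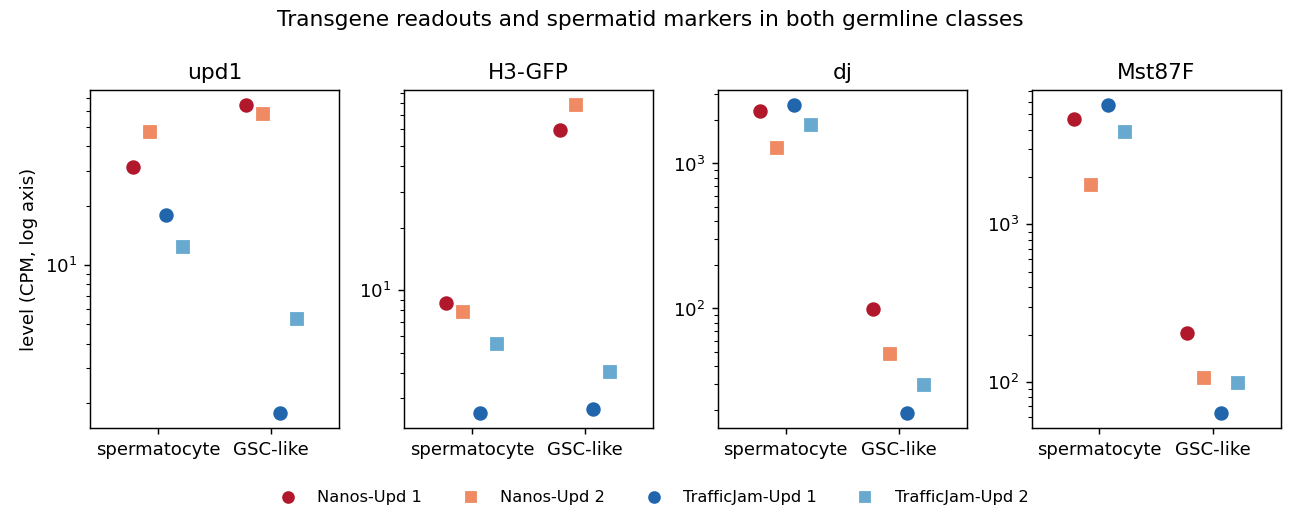
Level (CPM, log axis) of upd1, H3-GFP, dj and Mst87F in the spermatocyte and GSC-like classes, 1 point per library. H3-GFP and upd1 are far apart between the tumor types in GSC-like cells and closer in the spermatocyte class, while dj and Mst87F are high in the spermatocyte class of every library and at most 206 CPM in GSC-like cells.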

How the data were processed

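The 4 libraries were made with the 10x Genomics 3' kit v3.1, per the labels' protocols. Cell Ranger 7.0.0, Seurat 5.0.3 and the dm6 genome are named in the submitters' processing notes. The deposited matrix holds counts of UMIs per gene and cell, not normalized by the authors, for 20618 cells and 17558 features. The deposited cell table gives, as the authors computed them, the percent of a cell's UMIs from mitochondrial genes (below 10) and from ribosomal genes (below 40), the library and the class. How classes were assigned and whether doublets were removed is not given in the sources used here, and no doublet caller was run. Libraries held 13190124 to 33499923 UMIs.

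UMIs were summed per library and class. Differences were tested with edgeR 4.0.16 (R 4.3.3; filterByExpr, TMM, robust quasi-likelihood test, Benjamini-Hochberg adjustment), between tumor types on 4 sums and for the interaction on 8 sums with the library as a block. SEs are those implied by the F statistic. The scripts were checked on simulated data. Shares have exact 95% binomial intervals, and a count of 0 allows 3 counts. Per-cell comparisons used cells thinned to 2200 UMIs. Sub-clusters (scanpy 1.11.5) used counts scaled to 10000 and log-transformed. Other steps used Python 3.11.15, numpy 2.4.6, pandas 2.3.3, scipy 1.17.1 and matplotlib 3.10.9. Coordinates are those of the BDGP6.54 annotation (release 115), to which 17515 features were matched by FlyBase identifier. Alternatives were DESeq2 1.42.0, RLE size factors, no filter, a replicate block, deeper cells, no mixed cells, equal cell numbers, other clusterings and leaving out each library. The members and gene lists were chosen with earlier results of these data known. Genes were named by lists, markers, the 15 highest levels and ratios in the class, and the 10 largest called changes per direction at 50 CPM or more. Replicate numbers were not used to pair the samples in the main tests, since they are not stated to mark a shared batch. Near-identical genes (Mst84D cluster, ProtA and ProtB, S-Laps, Hsp70 genes) may share reads.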

Additional observations from a re-analysis of the deposited data

Results flagged for a closer look

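The tumor type contrast differed between the spermatocyte and GSC-like classes for 770 genes by a test of the difference itself (interaction, edgeR, adjusted p under 0.05). For upd1 the interaction was -2.85 on the log2 scale, and it passed in 8 of 10 alternatives. For H3-GFP it was -3.44 and passed in 2 of 10. For dj it was -2.05 and passed in 11 of 11. For Mst87F it was -1.81 and passed in 6 of 11, with edgeR or DESeq2 adjusted p up to 0.382. The dj and Mst87F values rest on GSC-like levels at which cells of muscle and CySC-like classes hold these transcripts as well, and the part of free RNA was not tested.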

How the results depend on the processing

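The number of genes that differed between the tumor types in the class was 42. It was 12 with DESeq2, 69 with no filter on low counts, 79 with the replicate block, 108 without sub-clusters 2 and 3, 9 without sub-clusters 1 and 4, and 4 to 103 when a library was left out (4 without replicate 2 and 21 without replicate 1 of TrafficJam-Upd, 103 without replicate 2 of Nanos-Upd). It was 30 to 43 with RLE size factors, deeper cells, no mixed cells, equal cell numbers or no shared barcodes. The interaction count of 770 fell to 187 with DESeq2, 448 with RLE size factors, 257 with the replicate block in place of the library block, 179 with cells of at least 3000 UMIs, 338 without mixed cells, and 70 to 699 when a library was left out (70 without replicate 1 of TrafficJam-Upd, 191 and 297 without replicates 2 and 1 of Nanos-Upd). The cause was not tested. The difference in share ran from -2.67 to 1.56 percentage points when a library was left out and was 0.38 without TrafficJam-Upd replicate 2. The dj difference between tumor types ran from -1.06 to 0.085 and did not pass in any of 14 alternatives. Over 19 tests of named genes with a call, 186 alternatives kept it and 65 lost it. The 3 without a call (dj, Mst87F and upd1 between tumor types) had none in their 41 alternatives. Samples with the same replicate number had deviations correlated at 0.30. Leaving out sub-clusters 1 and 4 or 2 and 3, shared barcodes or the genes that differ was chosen after the data were seen, as were the alternatives to the tests of the class against other classes that change its cells or libraries. A library left out leaves 1 sample in its group, which is assumed to vary like the other group. At these depths aly and can gave a UMI in few cells, and their absence from a cell is not shown.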

Other observations

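The 5 genes that led sub-cluster 6 were concentrated in few cells. CG42782, Acp54A1, Anp, Dup99B and Obp51a gave 1659 UMIs in the class, and 3 cells of Nanos-Upd replicate 1 held 95.6% of them, with 79 to 1116 UMIs each. The other 54 cells with a UMI held between 1 and 19. The 18 stored spermatid genes kept nearly the same order of levels in the spermatocyte and GSC-like classes of a library, with rank correlations across genes of 0.905 to 0.963. The median ratio between the classes was 26.6, 29.9, 133 and 62.6. gdl had the lowest ratio in every library, 10.2 to 15.5.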
